A study of Mus musculus with 15 samples.

Results

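The 8 genes described here are Upp1, Ly75, AW112010, Entpd4, Mettl7a2, Wdfy1, Stc2 and 2010109I03Rik. They were chosen by their measured RNA levels, because these differ between Irf1-/- and B6 colons, untreated or treated, and because none belongs to a classic interferon family. All 8 were in each of the 3 deposited tables, out of 12370 genes common to the tables and 12897 genes in any of them. Their genotype differences are therefore given as a description, with no test.

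RNA-seq of whole distal colon covered 15 young adult mice in 5 groups of 3. All were on the C57BL/6 (B6) background. They were untreated wildtype B6 mice in control set 1, untreated B6 mice in control set 2, B6 mice at D26 of treatment, untreated Irf1-/- mutants, and Irf1-/- mutants at D26. Treated mice had been injected with the colon carcinogen azoxymethane (AOM) at 7 mg/kg on D1 and had drunk 2% dextran sulfate sodium (DSS), which injures the epithelium, from D8 to D11. The Irf1-/- mice lack the factor in all cells of the body, so that a level in the homogenized colon does not say which cell lost it. Genetic differences other than Irf1 between the mutant and the B6 mice, also in the number of copies of a gene, were not tested.

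Irf1 is a transcription factor induced by interferon-gamma, and it binds DNA sites built of GAAA repeats. Upp1 and Entpd4 act on nucleosides and nucleotides, Ly75 is an uptake receptor of dendritic cells, and AW112010 is a transcript of stimulated immune cells. Mettl7a2 belongs to a family of membrane methyltransferases, Wdfy1 is an adaptor on endosomes, Stc2 is a secreted glycoprotein, and 2010109I03Rik, listed by RefSeq as Ly6m, belongs to the Ly6 family of small surface proteins.

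Mettl7a2 has close copies, and their sequences bear on how far its counts can be separated from theirs. The first 90 bases of the GENCODE M21 coding sequences are shown, each within 1 exon on the plus strand of GRCm38, with bases that differ from Mettl7a2 in capitals. They lie at chr15:100353210-100353299 for Mettl7a2, at chr15:100304847-100304936 for Mettl7a1 and at chr15:100334930-100335019 for Mettl7a3.
Mettl7a2: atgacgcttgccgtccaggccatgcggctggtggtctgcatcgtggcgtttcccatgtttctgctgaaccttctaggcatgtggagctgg
Mettl7a3: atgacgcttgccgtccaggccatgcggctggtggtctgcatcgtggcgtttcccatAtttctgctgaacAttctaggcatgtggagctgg
Mettl7a1: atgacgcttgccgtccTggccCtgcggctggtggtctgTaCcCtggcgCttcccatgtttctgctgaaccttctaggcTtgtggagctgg
Over the whole coding sequence of 735 bases, Mettl7a3 differed from Mettl7a2 at 7 bases and Mettl7a1 at 39. The longest identical stretch was 261 bases with Mettl7a3 and 164 bases with Mettl7a1, beside reads of 50 bases. Of the 50-base windows of the longest Mettl7a2 transcript, 65.1% also occurred in a transcript of another gene, with 39.1% in one of Mettl7a3. For Entpd4 this share was 100%, because the paralog Entpd4b holds the same transcript, and Entpd4b is not listed in the count tables. It was 5.31% for 2010109I03Rik, 0.333% for Wdfy1 and 0 for Upp1, Ly75, AW112010 and Stc2. The level of Entpd4 thus cannot be divided between Entpd4 and Entpd4b, and that of Mettl7a2 is uncertain to the extent of the shared windows.

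Levels are given in CPM, read counts scaled to a common library size, after TMM scaling of the 15 libraries, whose tables hold 22.3 to 22.9 M counted reads each. Irf1 itself, the targeted gene, ranged between 144 and 161 CPM in control set 1, 128 and 141 CPM in set 2, 173 and 227 CPM in treated B6 mice, 79.4 and 117 CPM in untreated mutants, and 100 and 123 CPM in treated mutants. Mutant libraries lay below all B6 libraries, at 62.2% of the B6 mean. Reads were counted over the whole gene, so this level does not check which exons are missing. Colon markers were present throughout: all 8 absorptive and all 6 goblet cell markers were in the 3 tables. Of the dendritic cell markers 2 of 7 were listed in all tables, without Flt3, Zbtb46, Clec9a, Batf3 and Ccr7, and of the T cell markers 2 of 8. Xist was under 30 CPM in 3 of the 6 treated libraries (B6 mice 1 and 2 and mutant mouse 1) and between 321 and 3729 CPM in the 9 untreated ones, a sex-linked difference that moves with treatment and that the labels do not describe. The slope of a library's deviation on GC content was 0.14 to 0.29 log2 units per 10% GC in the 3 treated B6 libraries and -0.12 to 0.03 in the other 12.

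**Figure D1:**
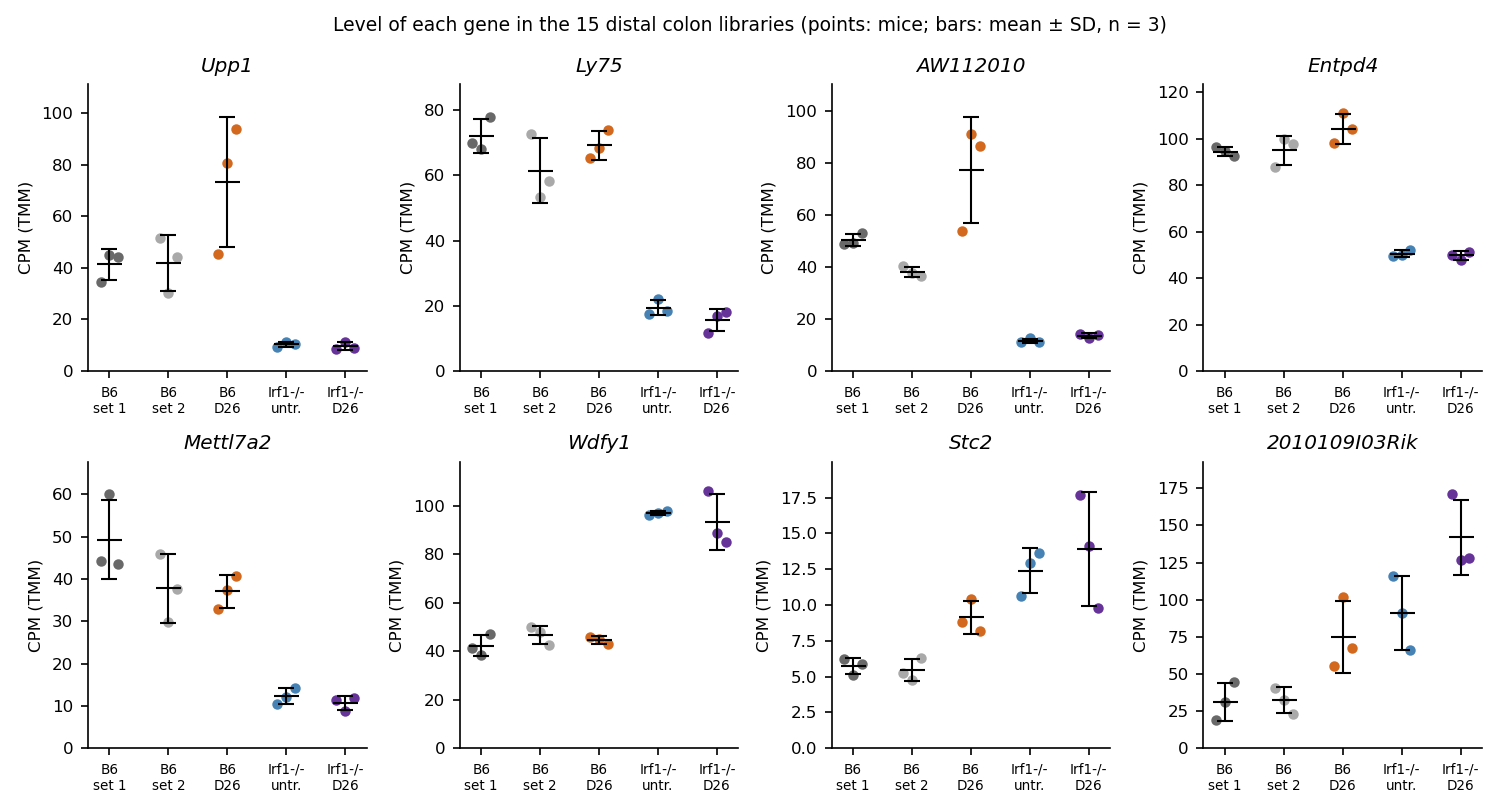
Level of each gene in CPM (linear axis from 0) in the 5 groups, with a point for each mouse and the mean ± SD of 3 mice. For Upp1, Ly75, AW112010, Entpd4 and Mettl7a2 the 6 mutant libraries lie below all 9 B6 libraries, for Wdfy1 they lie above, and for Stc2 and 2010109I03Rik some treated B6 libraries reach the level of mutant ones.

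At steady state the 8 genes fell into 5 with lower and 3 with higher RNA levels in Irf1-/- than in B6 colons. Upp1, AW112010, Ly75 and Mettl7a2 were at 24.6% to 32.5% of control set 2, Entpd4 at 53.2%, and Wdfy1, Stc2 and 2010109I03Rik at 207% to 281%. All 5 and all 3 passed an FC of 1.5 with an adjusted p under 0.01 in edgeR's quasi-likelihood fit, against 0.318% of the 12588 genes lower and 0.0874% higher, as the choice of the genes implies. The 3 mutant libraries did not overlap control set 2 for any of the 8, as for 15.5% of all genes. Summed B and plasma cell markers were at 491 to 637 CPM in these mutants and at 428 to 472 CPM in control set 2 (0 of 6 past the threshold by edgeR, 5 with an unadjusted p under 0.05). In control set 1 they were at 795 to 876 CPM, so the mutants lay between the B6 control sets. The part of these markers in the differences was not tested. In these bulk samples fewer cells of a type and less RNA per cell cannot be told apart.

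Upp1 encodes uridine phosphorylase, which splits uridine into uracil and a ribose phosphate. Its level was 34.5, 45.1 and 44.3 CPM in control set 1 and 51.5, 30.3 and 44.2 CPM in control set 2. Untreated mutants had 9.29, 11.4 and 10.3 CPM. At D26 the B6 mice had 45.2, 80.5 and 93.8 CPM and the mutants 8.55, 11.3 and 9.10 CPM. Over all 15 mice the lowest B6 library was 2.66 times the highest mutant one. Treated B6 mouse 1 lay at the level of the untreated mice, and mice 2 and 3 above all of them. The log2 difference of mutant minus B6 was -2.02 ± 0.18 (SE) at steady state and -2.94 ± 0.26 at D26, which corresponds to 24.6% and 13.2% of the B6 mean. The order of the groups was treated B6 first, then the control sets, then the mutants, and neither the control sets (41.3 ± 5.90 and 42.0 ± 10.8 CPM, SD, n = 3) nor the mutant groups (10.3 ± 1.05 and 9.65 ± 1.45 CPM) differed beyond their spread.

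Among 26 tested genes of pyrimidine salvage and breakdown, which hold the enzymes around Upp1, none passed the threshold between untreated genotypes in edgeR's fit, and 2 had an unadjusted p under 0.05, as had 10.4% of all genes. Their median log2 difference was -0.01, beside 0.00 over all genes. Those with the smallest p were Cmpk2, an interferon-induced mitochondrial nucleotide kinase (log2 difference -0.75 ± 0.17, adjusted p = 0.0835 by edgeR), the nucleoside transporter gene Slc28a2 (0.66 ± 0.28, adjusted p = 0.445) and the nucleotidase gene Nt5c (0.12 ± 0.06, adjusted p = 0.581). Slc28a2 averaged 6.39 CPM in untreated mutants, 4.05 CPM in control set 2 and 6.73 CPM in control set 1. At D26 none of the 26 passed either, with 4 under an unadjusted p of 0.05, as were 22% of all genes.

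Ly75 encodes the endocytic receptor DEC-205, a C-type lectin that carries antigens into dendritic cells. It was at 69.9, 68.2 and 78.0 CPM in control set 1 and at 72.6, 53.4 and 58.2 CPM in control set 2. Untreated mutants had 17.6, 22.1 and 18.4 CPM. The B6 and mutant libraries did not overlap. At D26 the B6 mice stood at 65.3, 68.4 and 74.0 CPM and the mutants at 11.8, 16.9 and 18.2 CPM. The lowest B6 library was 2.42 times the highest mutant library. On the log2 scale mutants differed from B6 by -1.66 ± 0.13 (SE) before and -2.17 ± 0.15 after treatment, which is 31.6% and 22.6% of the B6 mean. The 3 B6 groups overlapped each other, as did both mutant groups.

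The 15 tested C-type lectin and dendritic cell genes, of 32 listed, had a median log2 difference of 0.05 between untreated genotypes. None passed the threshold by edgeR (3 had an unadjusted p under 0.05, beside 10.4% of all genes). The smallest p were those of Irf4, a transcription factor of dendritic and B cells (0.70 ± 0.17, adjusted p = 0.102), of the lectin gene Clec2d (-0.43 ± 0.11, adjusted p = 0.119) and of the mannose receptor gene Mrc1 (-0.28 ± 0.09, adjusted p = 0.244). Irf4 averaged 15.4 CPM in untreated mutants, 9.44 CPM in control set 2 and 19.8 CPM in control set 1. The summed level of the 2 listed dendritic cell markers was 52.8 to 57.8 CPM in untreated mutants and 47.2 to 55.3 CPM in control set 2, and at D26 48.6 to 62.1 and 51.5 to 59.8 CPM. These ranges overlapped, but they rest on 2 of 7 markers, and the part of dendritic cell numbers in the level of Ly75 was not tested. The level of Cd302, next to Ly75 on the chromosome and chosen for that place, was 10.2 ± 1.36 CPM in untreated mutants and 9.58 ± 1.91 CPM in control set 2 (SD, n = 3; log2 difference 0.10 ± 0.17, adjusted p = 0.907 by edgeR).

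AW112010 was first annotated as a noncoding RNA and later found to be translated in macrophages. Control set 1 had 48.7, 49.1 and 52.9 CPM, control set 2 40.2, 37.5 and 36.5 CPM and untreated mutants 11.1, 12.5 and 11.1 CPM. Here the control sets themselves did not overlap, with a log2 difference of -0.40 ± 0.08 (SE) of set 2 minus set 1. At D26 AW112010 was at 53.7, 91.1 and 86.5 CPM in B6 mice and at 14.3, 12.7 and 13.9 CPM in mutants. Treated libraries lay above the untreated ones of their genotype in both B6 sets and in the mutants. The log2 difference between genotypes was -1.72 ± 0.09 at steady state and -2.52 ± 0.19 at D26, or 30.3% and 17.7% of the B6 mean.

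Entpd4 encodes a nucleoside diphosphatase of the Golgi and lysosomes. Its B6 levels were 96.3, 94.5 and 92.5 CPM in control set 1, 87.8, 99.7 and 97.5 CPM in control set 2 and 98.3, 111 and 104 CPM at D26. Its mutant levels were 49.4, 50.1 and 52.2 CPM untreated and 50.1, 47.8 and 51.4 CPM at D26. The mutant groups, at 50.5 ± 1.45 and 49.8 ± 1.84 CPM (SD, n = 3), did not overlap the B6 groups. Mutant minus B6 was -0.91 on the log2 scale, with an SE of 0.07, at steady state and -1.09 ± 0.08 at D26. Because the counts of Entpd4 cannot be divided from its duplicate, the level in mutants, 53.2% of control set 2, is that of all reads assigned to the name Entpd4.

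Of 20 tested NTPDase and extracellular nucleotide signalling genes, none passed the threshold between untreated genotypes (3 had an unadjusted p under 0.05 in edgeR's fit, beside 10.4% of all genes, and the median was -0.01). They included the receptor gene P2ry2 (0.55 ± 0.10, adjusted p = 0.0287), the channel gene Panx1 (-0.34 ± 0.09, adjusted p = 0.167) and the ectonucleotidase gene Nt5e (0.32 ± 0.09, adjusted p = 0.184). Nt5e averaged 214 CPM in untreated mutants, 171 CPM in control set 2 and 215 CPM in control set 1. At D26 none of the 20 passed, with 6 under an unadjusted p of 0.05, beside 22% of all genes. Entpd4 differed from its relatives Entpd5 and Entpd8 in that their log2 differences at steady state were -0.04 ± 0.08 (adjusted p = 0.936) and -0.20 ± 0.09 (adjusted p = 0.483).

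Mettl7a2 is a methyltransferase-like gene whose family members methylate thiol groups. It was at 44.3, 60.1 and 43.5 CPM in control set 1, at 46.0, 29.8 and 37.6 CPM in control set 2 and at 33.0, 37.5 and 40.7 CPM in treated B6 mice. Untreated mutants had 10.5, 12.2 and 14.2 CPM and treated mutants 11.4, 8.85 and 11.8 CPM. The mutants lay below every B6 library in both states, and the lowest B6 library was 2.10 times the highest mutant one. This is a log2 difference of -1.62 ± 0.16 (SE) untreated and -1.81 ± 0.14 treated, or 32.5% and 28.8% of the B6 mean.

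Its copies also had lower levels in the mutants. Mettl7a3, whose first bases are printed above beside those of Mettl7a2, was at 32.2 ± 1.92 CPM in control set 2 and 13.9 ± 3.20 CPM in untreated mutants (SD, n = 3), a log2 difference of -1.21 ± 0.14 (adjusted p = 0.00305 by edgeR). Mettl7a1, the most abundant copy at 186 ± 15.4 and 137 ± 5.71 CPM, differed by -0.44 ± 0.07 (adjusted p = 0.0230), short of the FC of 1.5. At D26 the log2 differences were -1.74 ± 0.18 for Mettl7a3 (adjusted p = 0.00279) and -0.68 ± 0.11 for Mettl7a1 (adjusted p = 0.0241). The more distant relative Mettl7b did not pass, at 0.16 ± 0.13 (adjusted p = 0.758) and -0.36 ± 0.14 (adjusted p = 0.176). Mettl7a2 shares 39.1% of its 50-base windows with Mettl7a3, so the level and test of Mettl7a3 may not be independent of the chosen gene. Mettl7a2 also shares 26.3% of its windows with Methig1, which is not listed in the count tables. A sum over the 3 copies thus does not settle how shared reads were counted. Summed over the 3 copies the level was 256 ± 23.4 CPM in control set 2 and 164 ± 9.50 CPM in untreated mutants, and 268 ± 24.7 and 145 ± 10.5 CPM at D26. Mettl7a2 made up 14.8% of that sum in control set 2 and 7.51% in untreated mutants.

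Mettl7a3 was the only one of 13 tested genes of the Mettl7 family and of sulfide or thiol handling to pass the threshold in either state. The thiol enzyme gene Mpst had the third smallest p at steady state (0.25 ± 0.07, adjusted p = 0.162 by edgeR). It averaged 45.8 CPM in untreated mutants, 38.6 CPM in control set 2 and 46.6 CPM in control set 1. The list's median was 0.01 at steady state and -0.33 at D26, beside 0.00 and -0.01 over all genes, and at D26 the level of all 13 genes was lower in mutants, 8 with an unadjusted p under 0.05, beside 22% of all genes. The call of Mettl7a3 was lost at steady state without control set 2 mouse 1 or 3 or mutant mouse 1 or 2, and at D26 without B6 mouse 2 or 3 or mutant mouse 1 or 2, which left 0 genes of the list past the threshold.

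**Figure D2:**
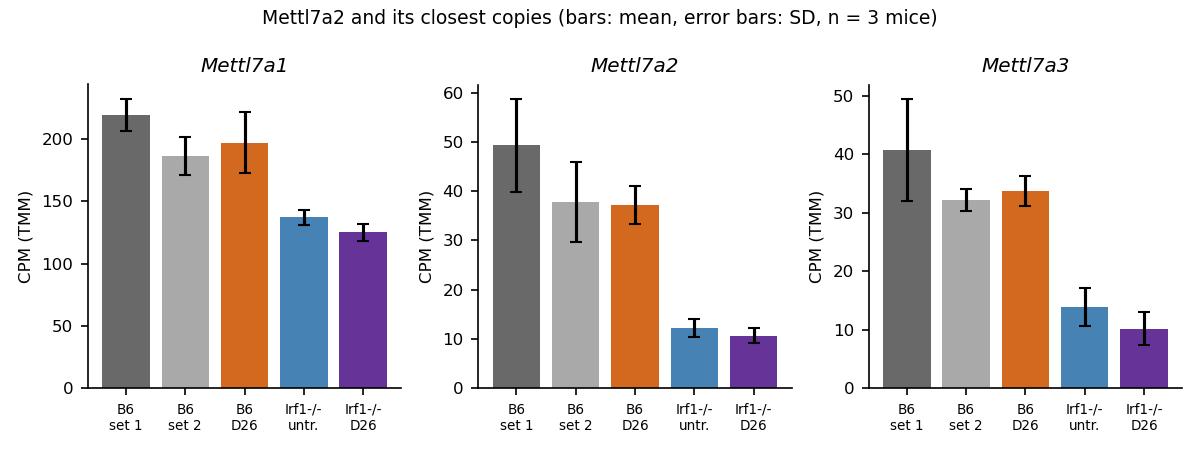
Mean level in CPM (bars from 0, error bars SD, n = 3 mice) of Mettl7a1, Mettl7a2 and Mettl7a3 in the 5 groups, each on its own scale. In all 3 copies both mutant groups lie below the 3 B6 groups, from 219 to 125 CPM for Mettl7a1 and from 49.3 to 10.7 CPM for Mettl7a2.

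Wdfy1 encodes a FYVE and WD40 repeat protein of early endosomes that links the receptors Tlr3 and Tlr4 to their adaptor. Unlike the genes above, it was higher in the mutants. Control set 1 had 41.5, 38.3 and 47.0 CPM, control set 2 49.9, 48.0 and 42.5 CPM, and treated B6 mice 45.9, 44.9 and 42.9 CPM. Untreated mutants had 96.1, 97.0 and 97.7 CPM, and treated mutants 106, 88.6 and 85.0 CPM. The lowest mutant library was 1.70 times the highest B6 library. Mutant minus B6 was 1.05 ± 0.07 (SE) on the log2 scale at steady state and 1.05 ± 0.10 at D26, or 207% and 209% of the B6 mean, and the 3 B6 groups overlapped each other.

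Among 25 tested genes of endosomal FYVE proteins and of Tlr3 and Tlr4 signalling, none passed between genotypes in either state by edgeR (2 untreated and 9 treated had an unadjusted p under 0.05, beside 10.4% and 22% of all genes). Unc93b1, which carries endosomal Toll-like receptors (-0.34 ± 0.08, adjusted p = 0.125), Tlr3 (-0.44 ± 0.12, adjusted p = 0.155) and the adaptor gene Ticam1 (0.20 ± 0.09, adjusted p = 0.531) had the smallest p at steady state. The log2 differences of the relatives Wdfy2, Wdfy3 and Wdfy4 were -0.04 ± 0.13, 0.04 ± 0.06 and 0.39 ± 0.21 (adjusted p = 0.962, 0.902 and 0.582). Ticam1 and Wdfy4 averaged 21.4 and 35.8 CPM in untreated mutants, below the 25.7 and 42.1 CPM of control set 1.

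Stc2 encodes stanniocalcin, a secreted protein that restrains a protease of insulin-like growth factor binding proteins and is a target of the stress factor Atf4. It had the lowest level of the 8 genes, at 6.21, 5.11 and 5.90 CPM in control set 1 and 5.29, 4.80 and 6.29 CPM in control set 2, close to the 5 CPM that each listed gene reaches in at least 3 libraries of a table. Untreated mutants had 10.6, 12.9 and 13.6 CPM. At D26 the B6 mice reached 8.83, 10.4 and 8.18 CPM and the mutants 17.7, 14.1 and 9.81 CPM. Mutant mouse 3 then lay within the B6 range, so that the genotypes overlapped in treated but not in untreated colons. Its log2 difference was 1.18 ± 0.15 (SE) at steady state and 0.59 ± 0.22 at D26, or 227% and 152% of the B6 mean.

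Of 26 tested genes of the stanniocalcin family, the Igf axis and Atf4 targets, none passed between genotypes in either state by edgeR (2 untreated and 3 treated had an unadjusted p under 0.05, beside 10.4% and 22% of all genes). The median was 0.01 untreated and 0.04 treated. The smallest p at steady state belonged to Igfbp2 (-0.40 ± 0.11, adjusted p = 0.184) and Igfbp7 (0.22 ± 0.09, adjusted p = 0.423), which encode binding proteins of growth factors, and to the chaperone gene Dnajb9 (0.17 ± 0.09, adjusted p = 0.619).

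2010109I03Rik varied widely between mice, with a CV of 17.7% to 40.6% in the 5 groups. It was at 18.9, 31.1 and 44.5 CPM in control set 1, 40.8, 32.8 and 23.4 CPM in control set 2, and 116, 91.1 and 66.1 CPM in untreated mutants. At D26 the B6 mice had 55.5, 102 and 67.7 CPM and the mutants 171, 127 and 128 CPM. The mutants lay above B6 within each state, whereas treated B6 mice overlapped untreated mutants. Its log2 difference was 1.49 ± 0.22 (SE) untreated and 0.90 ± 0.21 treated, or 281% and 189% of the B6 mean. Its order was treated mutants, untreated mutants and treated B6 mice, which overlapped, and the control sets, which did not differ beyond their spread (31.5 ± 12.8 and 32.3 ± 8.69 CPM, SD, n = 3).

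Of 29 listed Ly6 and uPAR domain genes, 12 were tested. None passed between genotypes in either state by edgeR (3 untreated and 5 treated had an unadjusted p under 0.05, beside 10.4% and 22% of all genes), with medians of -0.03 and -0.18. Plaur, the urokinase receptor gene, had the smallest p at steady state (0.69 ± 0.15, adjusted p = 0.0714), before Ly6e (-0.17 ± 0.06, adjusted p = 0.283) and Lypd8, which keeps bacteria from the colonic epithelium (-0.27 ± 0.11, adjusted p = 0.442). Of 17 listed genes of the interferon-gamma axis, only 8 could be tested. None of these 8 passed in either state, also none at an unadjusted p under 0.05. Il18, Jak2 and Ciita had log2 differences of 0.23 ± 0.11, 0.16 ± 0.08 and 0.45 ± 0.25 (adjusted p = 0.530, 0.534 and 0.610) at steady state. Their means in untreated mutants, 122, 125 and 22.7 CPM, lay below the 134, 128 and 24.1 CPM of control set 1.

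Compared per length, as CPM per kilobase of the longest transcript, AW112010 had the highest level of the 8 in untreated B6 colons (57.4 ± 9.0, SD, n = 6) and Stc2 the lowest (1.41 ± 0.156). In between came Upp1 (32.6 ± 6.10), Entpd4 (26.4 ± 1.17), Mettl7a2 (24.2 ± 5.59), 2010109I03Rik (9.94 ± 3.05), Wdfy1 (9.79 ± 0.979) and Ly75 (9.67 ± 1.33). In untreated mutants the highest per length were 2010109I03Rik (28.4 ± 7.77) and Wdfy1 (21.3 ± 0.173, SD, n = 3).

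At D26, 6 of the 8 genes passed the threshold between genotypes, the 5 lower genes and Wdfy1, against 0.312% of the 12483 genes lower and 0.0721% higher. Stc2 and 2010109I03Rik did not. Libraries did not overlap for 7 of the 8, as for 27.7% of all genes, and over all 6 mutant and 9 B6 libraries for 6 of the 8, as for 1.03%. Each value again follows from the choice of the genes. Summed skeletal muscle markers were at 99.3 to 168 CPM in treated mutants and 215 to 319 CPM in treated B6 mice (0 of 6 past the threshold by edgeR, 6 with an unadjusted p under 0.05), and their part was not tested. Leaving out a mouse kept 4 to 5 of the lower genes past the threshold, with Upp1 lost without treated mutant 1. Wdfy1 was lost without treated B6 mouse 3 or treated mutant 2. Over all genes these fits had 16 to 45 lower and 1 to 8 higher past the threshold. Since the genes were chosen on this contrast, kept calls do not support their differences. At steady state the calls of Stc2 were lost without any 1 of the 6 mice and those of 2010109I03Rik without 4 of them (control set 2 mice 2 and 3, mutant mice 1 and 2).

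**Figure D3:**
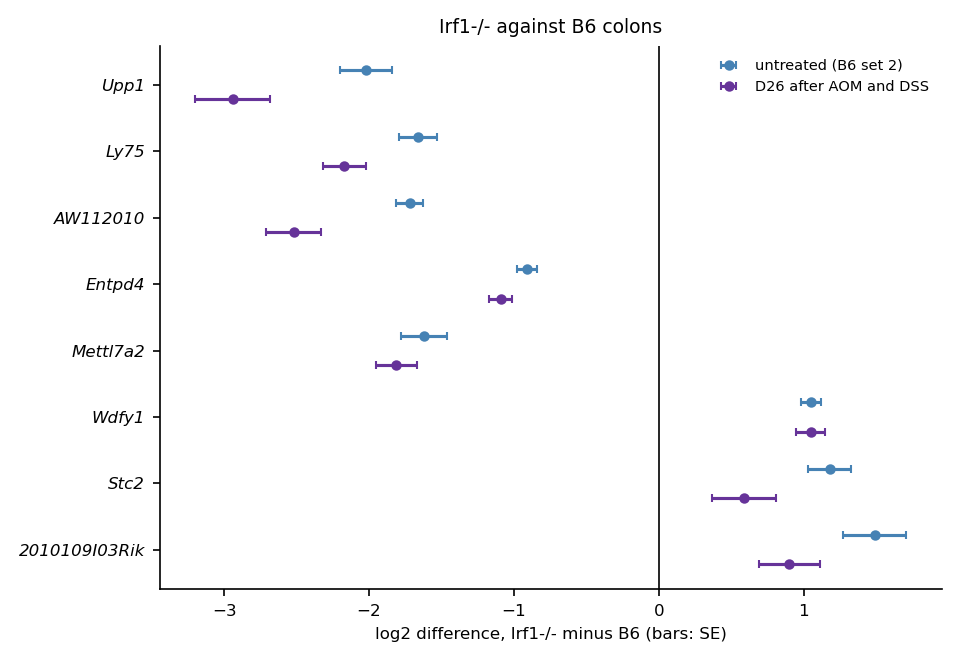
Log2 difference of Irf1-/- minus B6 for each gene, with SE bars, in untreated mice (control set 2) and at D26. Upp1, Ly75 and AW112010 lie further from 0 at D26, from -2.02 to -2.94 for Upp1, Wdfy1 is at 1.05 in both, and Stc2 and 2010109I03Rik lie nearer to 0 at D26.

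**Figure D4:**
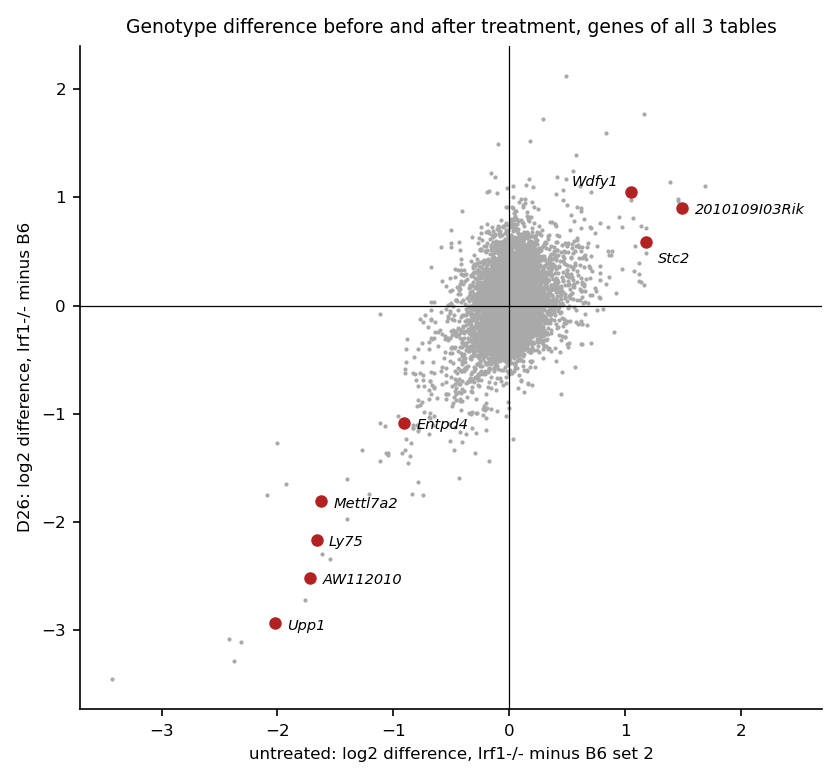
Log2 difference of Irf1-/- minus B6 in untreated (horizontal) and treated (vertical) colons for the 12370 genes in all tables (grey) and the 8 described here (red). The 5 lower genes lie at the lower left, from Entpd4 (-0.91 and -1.09) to Upp1 (-2.02 and -2.94), and the 3 higher genes at the right.

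The treatment responses were tested within each genotype, and they share libraries with the contrasts that chose the genes. In B6 mice against control set 1, none of the 8 passed the threshold, beside 0.0475% of 12643 genes, and 5 had an unadjusted p under 0.05 in edgeR's fit (3730 of all genes). The log2 difference was 1.26 ± 0.30 for 2010109I03Rik (adjusted p = 0.0397), 0.83 ± 0.24 for Upp1 (adjusted p = 0.0598), 0.68 ± 0.16 for Stc2 (adjusted p = 0.0384), 0.63 ± 0.18 for AW112010 (adjusted p = 0.0579) and -0.40 ± 0.14 for Mettl7a2 (adjusted p = 0.0968). Treated and untreated libraries did not overlap for these 5 nor for Entpd4 (0.15 ± 0.08, adjusted p = 0.211), as for 34.6% of all genes. Against control set 2 they did not overlap for 3 of the 8, AW112010, Stc2 and 2010109I03Rik, where treated libraries were higher, as for 18.6% of all genes. Ly75 (-0.05 ± 0.09, adjusted p = 0.736) and Wdfy1 (0.09 ± 0.09, adjusted p = 0.562) had the smallest differences. Without treated B6 mouse 1, whose Upp1 and AW112010 levels were the lowest of its group, Upp1 (1.09, adjusted p = 0.00684) and AW112010 (0.83, adjusted p = 0.00349) passed. Over all genes, 4 were higher past the threshold with all mice and 0 to 111 with a mouse left out. The paper reported more genes past the same FC and adjusted p limits between control and treated B6 mice. A member that did not pass is therefore not shown to lack a response. Summed goblet cell markers were at 26879 to 34267 CPM in treated B6 mice and at 9994 to 16610 CPM in control set 1 (0 of 6 past the threshold, 6 with an unadjusted p under 0.05). In control set 2 they were at 19954 to 25118 CPM, so the untreated sets themselves did not overlap. The part of these markers in the responses was not tested. DESeq2 called the same pair, Upp1 and AW112010 (adjusted p = 0.00288 and 0.00639), but of the tools tried it made the most false calls on data simulated for this comparison.

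In Irf1-/- mutants none of the 8 passed either, beside 0.252% of 12692 genes, and 1 had an unadjusted p under 0.05 in edgeR's fit (2361 of all genes). This was 2010109I03Rik, at 0.64 ± 0.19 (adjusted p = 0.122 by edgeR, and 0.00961 by DESeq2, whose false calls were not simulated for this comparison). AW112010 was at 0.24 ± 0.11 (adjusted p = 0.293), Stc2 at 0.17 ± 0.20 (adjusted p = 0.726) and Upp1 at -0.09 ± 0.15 (adjusted p = 0.794). The response of Upp1 in mutants thus lay between -0.39 and 0.20 at 2 SE to either side, and that of AW112010 between 0.02 and 0.46.

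The difference between the responses (mutant minus B6, the latter against control set 1) is a genotype contrast and is described without a test. None of the 8 passed the threshold, beside 0.0162% of 12370 genes. It was -0.92 ± 0.32 (SE) for Upp1, -0.62 ± 0.40 for 2010109I03Rik, -0.51 ± 0.27 for Stc2 and -0.38 ± 0.22 for AW112010. Mettl7a2 had the only positive value (0.21 ± 0.22), and with control set 2 it was -0.17. Between the control sets none of the 8 passed, beside 0.0644% of 12417 genes, and AW112010 (-0.40 ± 0.08), Mettl7a2 (-0.38 ± 0.16) and Ly75 (-0.23 ± 0.11) differed most.

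The mean treatment effect over both genotypes, with control set 2, weights the genotypes equally. With equal spread in all groups it would be uncorrelated with the genotype differences that chose the genes. The spread was unequal, with a CV of AW112010 of 26.5% in treated B6 mice and 4.95% in control set 2. Of the 8, 2 rose past the threshold and none fell, beside 1.29% of 12370 genes higher and 0.663% lower. AW112010 rose by 0.63 ± 0.11 on the log2 scale (adjusted p = 0.00231 by edgeR) and 2010109I03Rik by 0.93 ± 0.18 (adjusted p = 0.00319), in both cases with all 3 treated above all 3 untreated libraries in B6 mice, as for 18.6% of all genes, and in mutants, as for 11.8%. Stc2 was at 0.45 ± 0.14 (adjusted p = 0.0329), Upp1 at 0.35 ± 0.18 (adjusted p = 0.161), Mettl7a2 at -0.12 ± 0.12 (adjusted p = 0.497), Ly75 at -0.07 ± 0.11 (adjusted p = 0.661), Entpd4 at 0.06 ± 0.05 (adjusted p = 0.430) and Wdfy1 at -0.06 ± 0.06 (adjusted p = 0.487). At 2 SE to either side, Entpd4 lay between -0.04 and 0.16 and Wdfy1 between -0.19 and 0.06.

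**Figure D5:**
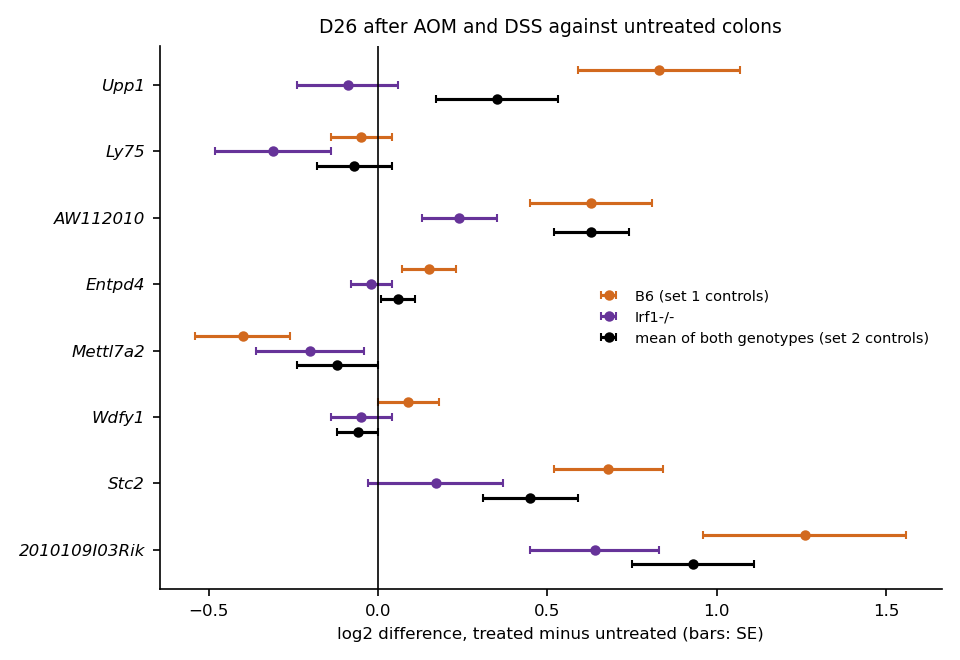
Log2 difference of treated minus untreated colons for each gene, with SE bars, in B6 mice (control set 1), in Irf1-/- mutants and as the mean of both genotypes (control set 2). AW112010 and 2010109I03Rik lie above 0 in all 3, Upp1 is at 0.83 in B6 mice and at -0.09 in mutants, and Wdfy1 and Entpd4 stay within 0.15 of 0.

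The call of AW112010 was lost without treated B6 mouse 2 (0.56) or 3 (0.58), which took it under the FC of 1.5, and with control set 1 (0.43, adjusted p = 0.0221) or both control sets (0.52). With log2 Xist as a covariate, an alternative chosen after seeing the data, neither passed (AW112010 0.64 ± 0.14, adjusted p = 0.0133, and 2010109I03Rik 0.74 ± 0.21, adjusted p = 0.0345 by edgeR). Macrophage and monocyte markers rose with treatment beside AW112010: 4 of 7 passed (Cd68, Csf1r, Lyz2 and Tyrobp), beside 1.29% of all genes. The summed level of the 7 was 412 to 554 CPM in treated and 275 to 321 CPM in untreated B6 mice of set 2, and 413 to 456 against 263 to 329 CPM in mutants. Their part in the result was not tested. Between untreated genotypes none of these 7 markers passed in edgeR's fit, nor had any an unadjusted p under 0.05.

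In the mean treatment effect 1.29% of all genes were higher past the threshold. Of the lists around the 8 genes, C-type lectin and dendritic cell genes had 4 of 15 higher with treatment (median 0.25, beside -0.00 over all genes), among them Sirpa (0.65 ± 0.08, adjusted p = 0.000368 by edgeR), the actin bundling gene Fscn1 (0.73 ± 0.13, adjusted p = 0.00242) and the integrin gene Itgax (0.61 ± 0.14, adjusted p = 0.00742). Ly75 did not rise with them. Ly6 and uPAR domain genes had 3 of 11 higher (median 0.46), Plaur (0.84 ± 0.12, adjusted p = 0.000879), Ly6a (0.68 ± 0.13, adjusted p = 0.00321) and Ly6d (0.92 ± 0.19, adjusted p = 0.00555), while Ly6e (0.56 ± 0.10, adjusted p = 0.00267) was short of the FC. The stanniocalcin and Igf list had 3 of 26 higher (median 0.17), the binding protein genes Igfbp4 (0.68 ± 0.11, adjusted p = 0.00109), Igfbp3 (0.66 ± 0.11, adjusted p = 0.00191) and Igfbp5 (0.66 ± 0.13, adjusted p = 0.00437). With the Xist covariate these counts were 1, 1 and 0. With a mouse left out, the first was 2 to 4, falling to 2 for 8 of the 12 mice, the next 1 to 4 (1 without untreated mutant 3 or treated B6 mouse 2, and 4 without treated B6 mouse 1), and the last 1 to 3 (1 without control set 2 mouse 3 or treated mutant 1). With control set 1, no C-type lectin or dendritic cell gene passed. In B6 mice alone 1 of 13 Ly6 and uPAR genes passed, beside 0.0475% of all genes. This was the prostate stem cell antigen gene Psca (3.14 ± 0.27, adjusted p = 0.00685 by edgeR), and its call was lost without any 1 mouse of control set 1 or without treated B6 mouse 3.

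The endosomal and Toll-like receptor list had 1 of 25 higher in the mean treatment effect, beside 1.29% of all genes. This was Wdfy4 (0.64 ± 0.15, adjusted p = 0.00838 by edgeR), which passed in 3 of the 12 fits with a mouse left out (without control set 2 mouse 2, treated B6 mouse 1 or treated mutant 3), while Unc93b1 (0.48 ± 0.07, adjusted p = 0.000898) and Ticam1 (0.44 ± 0.07, adjusted p = 0.00104) were short of the FC. An unadjusted p under 0.05 was found for 37.9% of all genes in this effect. Neither pyrimidine genes (26 tested, 11 with an unadjusted p under 0.05, median -0.08), nucleotide signalling genes (20, 9 and 0.12), the Mettl7 and thiol list (13, 7 and 0.01) nor the interferon-gamma axis (8, 2 and 0.08) had a gene past the threshold. Nt5c (-0.33 ± 0.05, adjusted p = 0.00109), the pyrimidine kinase gene Cmpk1 (-0.36 ± 0.06, adjusted p = 0.00139) and the ectonucleotidase gene Entpd1 (0.29 ± 0.05, adjusted p = 0.00248) had an adjusted p under 0.01 but a smaller FC.

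The genes whose log2 CPM followed each member most closely over the 15 libraries are given as a description, since libraries of a genotype share it. For Upp1 they were Psmb10, Tapbp and Uba7 (Pearson r = 0.98 for each), genes of antigen processing and of the ubiquitin-like pathway. For AW112010 they were Tapbp (0.99), Psme1 (0.99) and Gbp2 (0.98), and for Entpd4 Ano9 (0.99), Psmb10 (0.99) and Btnl6 (0.98). Ly75 was nearest to Btnl6 (0.98), Parp10 (0.98) and Btnl5 (0.97), and Mettl7a2 to Mettl7a3 (0.98), Btnl4 (0.97) and Btnl6 (0.97). As Mettl7a3 shares sequence with Mettl7a2, its correlation may include shared reads. Btnl genes encode butyrophilin-like proteins of the gut epithelium, and 3 of them were thus among the genes nearest to Ly75, Mettl7a2 or Entpd4. Wdfy1 was nearest to Cnot8 (0.93), Pgap1 (0.92) and Maff (0.91), Stc2 to Plau (0.94), Slc17a9 (0.92) and Ptprn2 (0.91), and 2010109I03Rik to Plk2 (0.95), Scube1 (0.92) and Tmem181c-ps (0.90). Plau encodes urokinase, the ligand of the receptor made by Plaur. Its log2 difference between genotypes was 1.46 at steady state and 0.99 at D26.

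Among the 8 themselves, log2 CPM of the 5 lower genes correlated at 0.91 to 0.97 over the 15 libraries, and of Stc2 and 2010109I03Rik at 0.85. With each group centred on its own mean, these values were lower: 0.70 for Upp1 and AW112010, 0.55 for Upp1 and Ly75, -0.34 for Ly75 and Entpd4 and -0.02 for Stc2 and 2010109I03Rik.

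The genes next to each member in RefSeq order were compared as well, 3 tested genes on each side. Of these 48 neighbours, 1 passed the threshold at steady state and 1 at D26, in both cases Mettl7a3, which shares sequence with Mettl7a2. Around AW112010 the log2 differences ranged from -0.19 to 1.39 untreated and -0.24 to 1.14 treated. The highest was the B cell gene Ms4a1 (1.39 ± 0.47, adjusted p = 0.287 by edgeR, and 1.14 ± 0.22, adjusted p = 0.0432), with the opposite sign to AW112010. Around Upp1 the log2 differences ranged from -0.41 to 0.72 untreated and -0.26 to 0.39 treated, around Ly75 from -0.14 to 0.39 and -0.02 to 0.44, around Entpd4 from -0.13 to 0.20 and -0.29 to 0.59, around Stc2 from -0.10 to 0.29 and -0.33 to 0.37, around Wdfy1 from -0.11 to 0.46 and -0.10 to 0.56, and around 2010109I03Rik from -0.19 to 0.05 and -0.54 to -0.04. The neighbours of 2010109I03Rik include the family members Ly6d, Ly6e, Ly6a and Ly6c1. Upp1 and Stc2 are on the chromosome of Irf1, with 153 and 90 tested genes between them and Irf1.

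Promoter windows of the RefSeq table (GRCm38.p6), 250 bases before each start, were given for 5 of the 8 genes (Upp1, Ly75, AW112010, Mettl7a2 and Stc2, 7 windows). None held the IRF-type motif GAAANNGAAA, which 2.98% of all 32851 windows held on either strand, or the motif TTCNNNGAA, which 7.02% held. Neither motif contains the other. At these shares 7 windows would often hold neither, so the counts do not show that the genes lack Irf1 sites. The paper reported more Irf1 binding peaks near genes lower in untreated mutants than near higher ones. Binding at the 8 genes was not examined here.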

How the data were processed

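Whole distal colons of 15 mice were sequenced as 50 bp pairs from rRNA-depleted stranded libraries. The submitters' processing notes name TopHat2 2.0.9, Bowtie 1.0.0, featureCounts, edgeR and the mm9 build. The authors deposited raw read counts per gene, and each table lists genes at 5 CPM or more in at least 3 of its libraries. The 36 columns of their CPM and log CPM were not used, nor were their own comparison columns (fold change, p-value, adjusted p-value, dispersion, direction). Untreated Irf1-/- libraries appear in 2 tables, with no count differing, and entered once.

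Counts were scaled by TMM and fitted with the quasi-likelihood test of edgeR 4.0.16 (R 4.3.3), with Benjamini-Hochberg adjusted p over all genes tested. Genes passed at an FC of 1.5 or more with an adjusted p under 0.01. Each group held 3 mice, and p-values measure the spread between these mice. Log2 CPM, used for correlations, GC slopes and the GC correction, had a prior count of 2. Log2 differences came from the fits. The members and the gene lists were chosen with earlier results of these data known, and no test supports their genotype differences. Other genes named were Irf1, the 3 genes most like each member over the 15 libraries, and up to 3 genes of each pathway list with the smallest p between untreated genotypes or in the mean treatment effect. Relatives, neighbours, called markers and Psca were named outside this rule, after their values were seen. Transcripts, GC content and lengths came from GENCODE M21, matched for 99.2% of genes, and names, neighbours and promoters from RefSeq. GRCm38 positions are those of printed sequences and were not set against the mm9 counts.

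Alternatives were RLE factors, library totals alone, DESeq2 1.42.0, limma voom 3.58.1, at least 10 CPM in 3 libraries, a single fit of all 15 libraries, a replicate block, a lowess correction on GC content (span 0.3), block and GC correction together, leaving out each mouse, a limit of 0.05 on the adjusted p, and other control sets. A log2 Xist covariate was added after seeing the data. On simulated data the fits recovered nearly all known changes. The size of those changes is not stated here, so their recovery does not show whether responses as small as those of the members would pass. False calls exceeded the nominal rate in the fits of 2 groups, most with DESeq2 in treated against untreated B6 mice.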

Additional observations from a re-analysis of the deposited data

How the results depend on the processing

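Between genotypes the log2 differences of the 8 genes kept their sign under the alternatives and with each mouse left out, 152 of 152 values untreated and 136 of 136 treated. The fits reuse libraries on which the genes were chosen, so the kept signs follow from that choice and add no support. Counts of members past the threshold moved as follows. In treated against untreated B6 mice, none became 2 with an adjusted p under 0.05, 2 with DESeq2, 1 with all 15 libraries in 1 fit, 3 with both control sets and 0 to 2 with a mouse left out. In mutants, none became 1 with DESeq2. In the mean treatment effect, 2 higher became 0 with the Xist covariate, 1 with control set 1, 1 with both control sets and 1 to 2 with a mouse left out. Between untreated genotypes 3 higher became 1 to 2 with a mouse left out, and 2 with limma voom, all 15 libraries in 1 fit, GC correction or control set 1 (each without 2010109I03Rik) and with the replicate block (without Stc2). Between treated genotypes 1 higher became 2 with DESeq2 and 0 to 1 with a mouse left out. Deviations of same-numbered mice correlated at -0.25 to 0.25, and the numbers were not treated as a pairing. Differently numbered mice were not correlated for comparison, so these values do not settle whether mice were paired. With the replicate block, members between treated genotypes went to 2 lower and 0 higher, and with block and GC correction to 3 lower and 0 higher. Over all genes the counts moved more widely: in treated B6 mice 4 higher and 2 lower became 0 and 0 with limma voom and 227 and 214 with DESeq2, in mutants 26 and 6 became 152 and 69 with DESeq2 and 12 and 1 with the 10 CPM filter. The mean treatment effect went from 160 and 82 to 80 higher with the Xist covariate and to 99 and 43 with control set 1. Between genotypes 11 and 40 became 39 and 91 with control set 1 untreated, and 9 and 39 became 128 and 142 with DESeq2 and 1 and 6 with the block treated. For the difference between responses 2 and 0 became 51 and 27 with DESeq2, and between control sets 3 and 5 became 77 and 67. The causes were not tested. Stc2 fell under the 10 CPM filter in treated against untreated B6 mice and between the control sets, and has no value there.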
